A study of Homo sapiens with 2 samples.

Results

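Chromosome 4 held 493 of the 26642 peaks that a TCF4 antibody gave in CAL-27 sphere cells. They are all the peaks whose chromosome field in the deposited list is chr4, and no measured value entered the choice. The chromosome was divided at position 50711806 of the human build hg38, and each peak went to an arm by its summit, the base with the highest pileup. The short arm received 346 summits and the long arm 147. CAL-27 cells are an established human line that derives from a squamous carcinoma of the tongue, and growth as floating spheres is a common way to enrich for stem-like tumour cells. Genomic DNA was recovered from these cells by a TCF4 antibody (1 library) and, as control, by an IgG antibody (1 library). All values come from the TCF4 library, and the control was not analysed here. Each antibody has 1 library, so there is no replicate check and intervals cover counting error only. Peaks that would appear without TCF4 could not be told apart from TCF4 sites.

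The name TCF4 is carried by an E protein, a basic helix-loop-helix factor that pairs with other such factors on E-box sequences. It is also an older name of TCF7L2, which binds beta-catenin on Wnt target genes through a high mobility group domain that reads a short CTTTG core. The labels do not say which of these proteins the antibody was made against. Human chromosome 4 is known for long gene-poor stretches and low GC content. Its genes include LEF1, a relative of TCF7L2, the CXC chemokine cluster, the EGF family ligands AREG and EREG, and the receptor genes KIT, PDGFRA and KDR. The end of the long arm carries the D4Z4 repeat array with the DUX4 gene.

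The sequences below are the 250 bases upstream of a listed start, from RefSeq on GRCh38.p14, the assembly of which hg38 is a name, and they run 5′ to 3′ on the gene's own strand. They are shown because the summit lay inside this stretch at UVSSA, SMIM14, UGDH and HAUS3 on the short arm and at HNRNPD, YTHDC1, RPS3A and COPS4 on the long arm, the strongest such peaks of each arm. LEF1 is shown as a Wnt pathway gene without a summit, and its listed start lies inside the gene record. Capitals mark the E-box letters CANNTG, searched on both strands, where each match reads the same pattern on the other strand. The TCF/LEF letters CTTTGA and CTTTGT were searched on both strands as well and occurred in none of these 9 stretches.
UVSSA: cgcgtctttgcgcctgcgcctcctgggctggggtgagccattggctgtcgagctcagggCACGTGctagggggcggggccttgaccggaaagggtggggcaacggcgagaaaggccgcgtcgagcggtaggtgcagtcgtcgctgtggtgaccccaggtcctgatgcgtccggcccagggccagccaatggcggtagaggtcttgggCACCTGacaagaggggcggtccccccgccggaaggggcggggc
SMIM14: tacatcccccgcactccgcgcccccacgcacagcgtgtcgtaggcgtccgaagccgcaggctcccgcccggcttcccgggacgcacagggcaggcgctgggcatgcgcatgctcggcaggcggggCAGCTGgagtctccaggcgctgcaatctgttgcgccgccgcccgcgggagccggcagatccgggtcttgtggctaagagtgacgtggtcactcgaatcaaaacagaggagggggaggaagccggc
UGDH: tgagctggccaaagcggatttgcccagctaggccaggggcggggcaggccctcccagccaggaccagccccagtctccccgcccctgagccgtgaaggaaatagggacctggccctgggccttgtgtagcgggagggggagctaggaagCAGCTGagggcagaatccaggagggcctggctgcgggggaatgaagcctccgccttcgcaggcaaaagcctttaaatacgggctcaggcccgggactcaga
HAUS3: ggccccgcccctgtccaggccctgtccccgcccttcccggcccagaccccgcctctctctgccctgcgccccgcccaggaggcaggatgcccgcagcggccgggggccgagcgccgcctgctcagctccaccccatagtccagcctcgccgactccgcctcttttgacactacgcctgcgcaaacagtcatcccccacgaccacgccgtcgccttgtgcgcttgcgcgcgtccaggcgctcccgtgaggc
HNRNPD: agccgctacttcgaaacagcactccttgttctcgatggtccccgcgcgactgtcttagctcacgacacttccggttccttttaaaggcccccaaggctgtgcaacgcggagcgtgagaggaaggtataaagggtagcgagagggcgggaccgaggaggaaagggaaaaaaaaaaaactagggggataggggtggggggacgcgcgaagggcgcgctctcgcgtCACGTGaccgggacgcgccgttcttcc
YTHDC1: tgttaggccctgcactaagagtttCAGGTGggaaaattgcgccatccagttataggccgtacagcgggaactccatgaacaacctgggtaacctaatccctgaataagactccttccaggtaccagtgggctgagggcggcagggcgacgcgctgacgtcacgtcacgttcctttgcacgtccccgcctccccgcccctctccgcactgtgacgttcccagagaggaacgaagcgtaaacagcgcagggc
RPS3A: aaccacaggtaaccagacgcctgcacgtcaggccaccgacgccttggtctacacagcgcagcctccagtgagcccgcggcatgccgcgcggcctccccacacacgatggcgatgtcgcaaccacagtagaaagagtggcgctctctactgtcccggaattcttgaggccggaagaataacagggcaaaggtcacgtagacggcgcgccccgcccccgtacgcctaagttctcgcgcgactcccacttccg
COPS4: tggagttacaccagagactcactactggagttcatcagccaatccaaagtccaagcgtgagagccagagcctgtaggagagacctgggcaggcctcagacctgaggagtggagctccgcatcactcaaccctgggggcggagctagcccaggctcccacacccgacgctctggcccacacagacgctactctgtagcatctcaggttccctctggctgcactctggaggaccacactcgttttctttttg
LEF1: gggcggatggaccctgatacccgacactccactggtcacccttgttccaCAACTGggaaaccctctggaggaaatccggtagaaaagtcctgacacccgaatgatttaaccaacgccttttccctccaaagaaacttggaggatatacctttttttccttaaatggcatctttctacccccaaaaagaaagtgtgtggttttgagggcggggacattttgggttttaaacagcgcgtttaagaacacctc

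On the chromosome these stretches are chr4:1346958-1347207 for UVSSA, chr4:151099378-151099627 for RPS3A and chr4:83034933-83035182 for COPS4, all on the plus strand. On the minus strand they are chr4:39638866-39639115 for SMIM14, chr4:39527440-39527689 for UGDH, chr4:2242122-2242371 for HAUS3 and chr4:82373992-82374241 for HNRNPD. YTHDC1 lies on the minus strand at chr4:68350091-68350340, as does LEF1 at chr4:108166302-108166551. The LEF1 record runs to 108168932, so this stretch is not the sequence before the outer end of the gene. The UVSSA stretch held 2 E-boxes, CACGTG and CACCTG, and the summit lay 119 bases before the start. HNRNPD had a CACGTG 27 bases before its start, with the summit at 159 bases. SMIM14 and UGDH each had a CAGCTG, and YTHDC1 had a CAGGTG far upstream of its summit. HAUS3, RPS3A and COPS4 held a summit and no E-box letters, while the LEF1 stretch held a CAACTG and no summit. GC content was 70.8% at UVSSA, 74.0% at HAUS3, 58.4% at COPS4 and 47.6% at LEF1.

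Summits were sparse on chromosome 4 and lay mostly on its short arm. The chromosome held 1.85% of all summits against 3.85% of all protein-coding gene records. The short arm had 6.83 summits per Mb (exact Poisson interval 6.13 to 7.59) over the 50.7 Mb from the first gene record to the boundary. The long arm had 1.05 per Mb (0.890 to 1.24) over the 139 Mb to the last gene record. The short arm was thus 6.48 times as dense (exact interval of the ratio 5.33 to 7.91), and 70.2% of the summits lay on it (Wilson interval 66.0 to 74.1%). All other chromosomes together had 9.25 per Mb, so both arms lay below that level. Of 24 chromosomes, chromosome 4 ranked 3 from the lowest with 2.59 per Mb, above X at 1.57 and Y at 0.809. Its neighbours in size had 8.17 per Mb on chromosome 3 and 6.93 on chromosome 5.

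Gene density differed far less between the arms than summit density. The short arm holds 4.796 protein-coding records per Mb and the long arm 3.74. Within 1 kb of either end of such a record, called a gene end here, summits were 2.72 times as dense on the short arm (1.96 to 3.77). Away from gene ends the ratio was 10.7 (8.21 to 14.2), from 5.31 per Mb on the short arm against 0.495 on the long arm. The excess of the short arm was thus found at both kinds of place and was larger away from protein-coding gene ends. The intervals of the ratios do not overlap. They take summits as independent, while 44 of the 269 short-arm summits away from gene ends lay in 1 bin of 1 Mb. At a −log10 q (the caller's false discovery rate) of at least 10, the short arm had 19 summits at gene ends and 40 elsewhere. The long arm had 15 and 16.

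Fewer genes carried a summit at an end than on most chromosomes. On chromosome 4, 147 of 764 protein-coding genes did, 19.2% (Wilson interval 16.6 to 22.2%), against 8094 of 19102 on the other chromosomes, 42.4%, and 41.5% over all. Short-arm genes reached 71 of 243, 29.2% (23.9 to 35.2%). Long-arm genes reached 76 of 521, 14.6% (11.8 to 17.9%), close to the 15.3% of chromosome X. The arms' intervals do not overlap, and that of the short arm includes the 29.8% of chromosome 8 and the 29.9% of chromosome 18.

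Stricter thresholds and other windows left the arms in the same order. At a −log10 q of at least 5, where q is the caller's false discovery rate, 89 chromosome 4 genes had a summit at an end, 11.6%. These were 45 short-arm genes, 18.5%, and 44 long-arm genes, 8.45%, against 28% on the other chromosomes and 27.4% over all. At a −log10 q of at least 10 there were 42, 5.5%, with 9.88% of short-arm genes and 3.45% of long-arm genes, against 14.6% on the other chromosomes and 14.2% over all. A window of 500 bp gave 17.5% on chromosome 4, 25.9% on the short arm and 13.6% on the long arm, against 37.4% and 36.6%. A window of 2 kb gave 20.7%, 31.7% and 15.5%, against 46.7% and 45.7%.

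**Figure D1:**
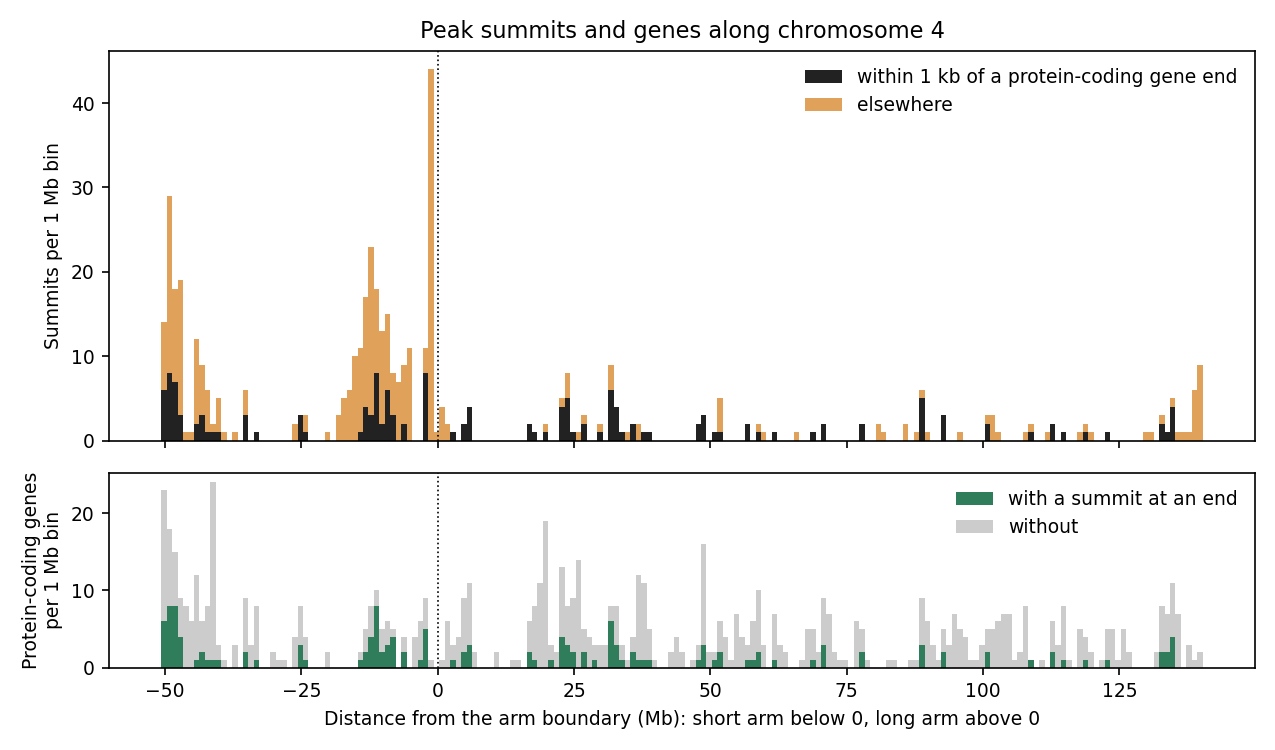
Summits (top) and protein-coding genes (bottom) in 1 Mb bins along chromosome 4, by distance in Mb from the arm boundary, with the short arm below 0. Black parts of the upper bars are summits within 1 kb of a protein-coding gene end and orange parts all others, while green parts of the lower bars are genes with a summit at an end. The highest bar holds 44 summits and none of them at a gene end.

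**Figure D2:**
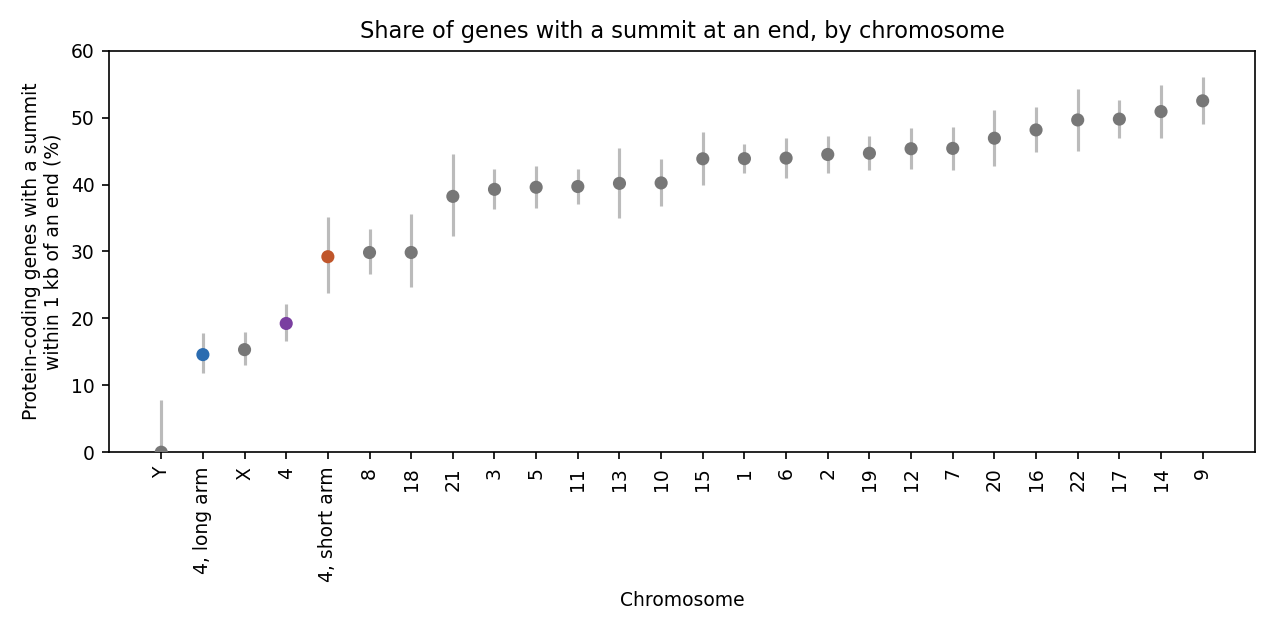
Share of protein-coding genes with a summit within 1 kb of an end, in percent, for each chromosome and for the arms of chromosome 4, in rising order. Points are shares and bars are Wilson 95% intervals. The long arm lies at 14.6%, the short arm at 29.2% and the whole chromosome at 19.2%, below all chromosomes but X and Y.

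Along the short arm the summits fell into a few zones, whose borders were drawn after the values were seen. The first 10 Mb held 111 summits, 11.1 per Mb. From 10 to 30 Mb only 22 summits were found, 1.10 per Mb, fewer per Mb than on the other chromosomes together. From 30 to 49 Mb there were 168, or 8.84 per Mb, and the next 1 Mb bin held 44. The long arm stayed low over most of its length, with 132 summits and 0.957 per Mb from 51 Mb to the start of its last bins, in which the summit at 189233964 is the first. Those bins held 15 summits, about 12.5 per Mb of a span that ends near the last gene record. The last summit lay 7446 bp beyond that record. Bins of 1 Mb without any summit made up 15 of 50 on the short arm and 76 of 140 on the long arm, 54.3%, and 57 of those long-arm bins hold protein-coding genes.

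The shares of marked genes were taken in the same zones. From 30 to 49 Mb, 32 of 66 genes had a summit at an end, 48.5% (Wilson interval 36.8 to 60.3%). In the first 10 Mb the share was 31 of 129, 24.0% (17.5 to 32.1%). That zone holds 19 USP17L records, near-identical copies to which reads cannot be assigned with certainty. Of these, USP17L22 had a summit (5.42-fold on 7 fragments). Without the copies the share was 30 of 110, 27.3%. From 10 to 30 Mb it was 8 of 47, 17.0%, and on the long arm without its last bins 76 of 518, 14.7% (11.9 to 18.0%). Since the borders were drawn where summits were dense, these shares are a description and no comparison between zones is drawn from them.

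Long-arm summits sat at genes more often than short-arm summits. Of the long-arm summits, 78 of 147 lay at such a gene end, 53.1% (45.0 to 60.9%), against 77 of 346 on the short arm, 22.3% (18.2 to 26.9%), and 32.2% on the other chromosomes. Between genes lay 131 short-arm summits, 37.9%, and 26 long-arm summits, 17.7%. Inside protein-coding genes and away from their ends lay 110 on the short arm, 31.8%, and 19 on the long arm, 12.9%. Ends of other gene records, such as long noncoding RNAs and pseudogenes, took 16 and 15 summits. The remaining 12 and 9 lay inside such records. The 49 Mb bin weighed on the short-arm share, which was 25.5% of 302 summits without it. Without the last bins the long-arm share was 59.1% of 132. The difference was smaller among the strongest peaks. At a −log10 q of at least 10, the gene-end share was 48.4% of 31 long-arm summits and 32.2% of 59 short-arm summits.

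Peaks rested on few fragments on both arms. The fold enrichment is the authors' ratio of the pileup at the summit to a local background. With the deposited p-value it gives back the number of fragments at the summit and the background. The median summit held 9 fragments on the short arm and 8 on the long arm, and 62.7% and 66.0% of summits rested on 10 or fewer. A summit of 8 fragments has an exact Poisson interval of 3.45 to 15.8. The median fold was 5.27 on the short arm and 6.04 on the long arm, with highest values of 31.6 and 31.8. A −log10 q of at least 5 was reached by 142 short-arm peaks, 41.0%, and 79 long-arm peaks, 53.7%.

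The local background was lower on the long arm. Its median was 0.770 fragments on the short arm and 0.481 on the long arm, against 0.967 on the other chromosomes. Of long-arm peaks, 72 of 147 or 48.98% lay within 0.001 of the lowest background the list holds, 0.475 fragments, and so did 40 short-arm peaks, 11.6%, and 9.28% of peaks on other chromosomes. Without the peaks at that lowest value the median backgrounds were 0.834 and 0.682 fragments, and the median folds 5.25 on the short arm and 7.08 on the long arm. The part of the background in the folds, the summit densities and the gene shares above was not tested. Copies of the arms per cell, which the files used here do not give, were not tested either.

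**Figure D3:**
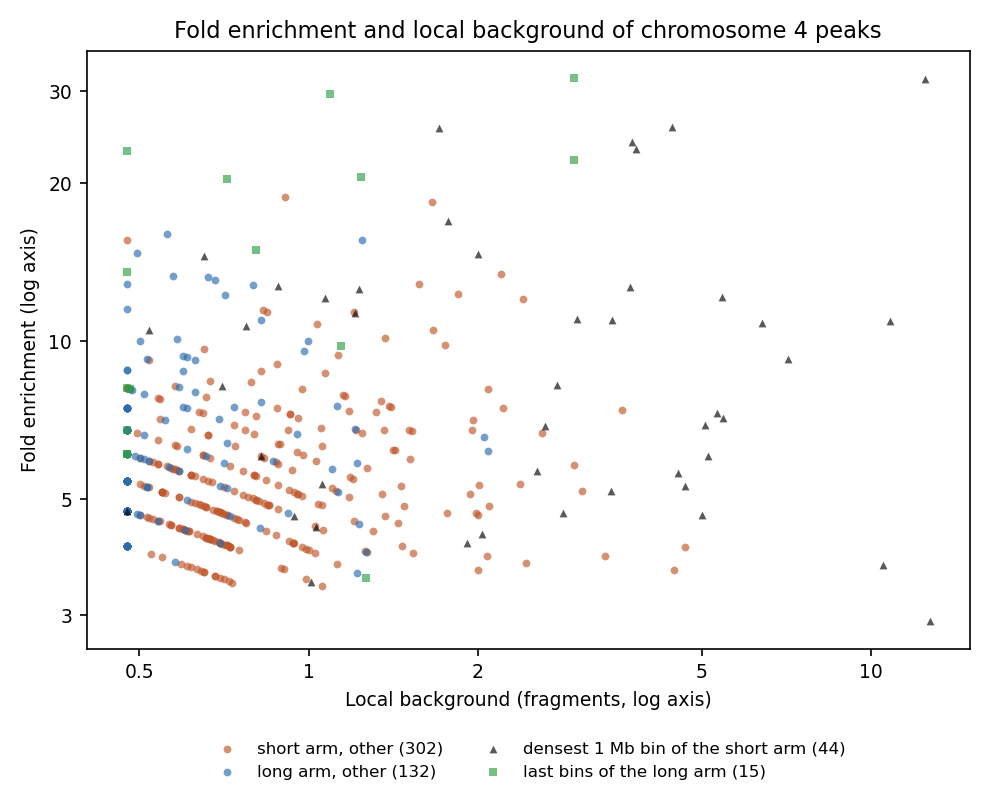
Fold enrichment against local background in fragments for the 493 peaks, both on log axes. Orange and blue points are the arms without their densest ends, black triangles the 44 peaks of the densest short-arm bin and green squares the last 15 peaks of the long arm. Long-arm peaks crowd at the lowest background, 0.475 fragments, and the triangles reach the highest, 12.7.

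Summits at genes clustered just upstream of listed starts on both arms. The RefSeq promoter table lists starts and strand for 657 of the 764 genes. Within 1 kb of a listed start lay 77 short-arm summits, 49 upstream and 28 at or downstream of it, with a median of 76 bp upstream (−76). On the long arm there were 84, with 55 upstream and 29 at or downstream, and a median of −61 bp. A summit within 1 kb of the start was found at 67 of 193 short-arm genes with strand, 34.7%, and at 75 of 464 long-arm genes, 16.2%, or 142 of 657 in all, 21.6%, against 45.4% on the other chromosomes and 44.5% over all. The far end of the gene, where transcription finishes, had a summit at 2 short-arm and 5 long-arm genes, 1.04% and 1.08%, or 1.07% of both arms, against 4.96% on the other chromosomes and 4.8% over all. Of gene-end summits, 64 of 77 on the short arm and 67 of 78 on the long arm were at a start only.

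**Figure D4:**
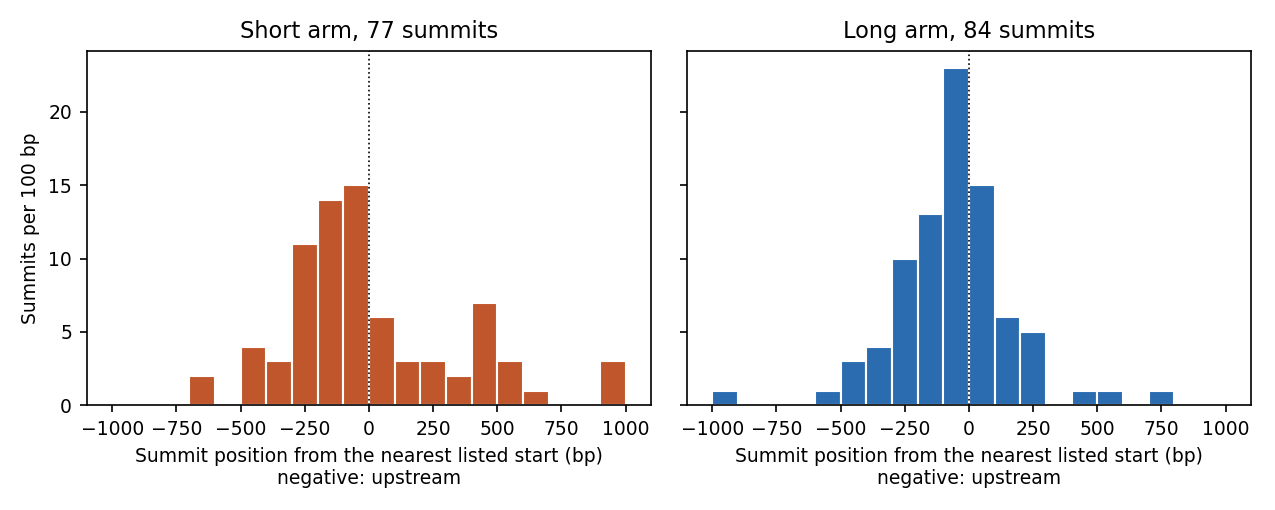
Position of summits relative to the nearest listed start in bp, in bins of 100 bp, for 77 short-arm and 84 long-arm summits within 1 kb of a start, with upstream positions negative. Most summits lie between −500 and 100 bp on both arms, and the short arm has 7 summits from 500 to 1000 bp downstream where the long arm has 2.

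Gene-end peaks were also wider. Their median width was 228 bp against 156 bp elsewhere on the short arm, and 220.5 against 160 bp on the long arm. Median folds were 6.03 at gene ends and 5.11 elsewhere on the short arm, and 6.13 and 5.86 on the long arm.

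The strongest gene-end peaks of the short arm came from genes of varied function. Of the first 10 genes, some of which share a peak, 5 lay between 37 and 40 Mb. RELL1, which encodes a RELT-like membrane protein, had 13.4-fold enrichment on 42 fragments (30.3 to 56.8) at chr4:37686220-37686869. SMIM14, a small membrane protein gene, reached 12.8-fold on 32 fragments. UGDH makes UDP-glucuronate for glycosaminoglycans and had 12.3-fold on 34 fragments. HTT, the huntingtin gene, had 12.1-fold on 40 fragments (28.6 to 54.5) at chr4:3074011-3074590, with the summit 493 bp upstream of its start. The intervals of these 4 fragment counts overlap, so they do not order the genes.

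Lower in the same group, HAUS3 and POLN shared a start and a peak of 11.5-fold on 20 fragments. HAUS3 is an augmin subunit of the mitotic spindle and POLN a DNA polymerase. CNGA1, a cyclic nucleotide-gated channel of rod cells, and NIPAL1, a magnesium transporter relative, shared a peak of 11.4-fold on 20 fragments, with a weaker one of 8.77-fold beside it. WDR19, an intraflagellar transport gene, had 10.8-fold on 21 fragments, and KLHL5, a kelch-like adaptor, 10.5-fold on 27. The KLHL5 summit lay 259 bp from the end of the record but at −17664 bp relative to the start listed in the promoter table.

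On the long arm the strongest gene-end peak was that of HNRNPD. This gene, whose product binds AU-rich elements of messenger RNAs, had 15.6-fold on 34 fragments (23.5 to 47.5) at chr4:82374082-82374429. YTHDC1, a nuclear reader of methylated adenosine in RNA, had 13.3-fold on 20 fragments at chr4:68349959-68350285. RPS3A, a protein of the small ribosomal subunit, had 13.2-fold on 21 fragments and COPS4, a subunit of the COP9 signalosome, 13.1-fold on 21. The intervals of all 4 counts overlap, from 12.2 at the lowest bound to 47.5 at the highest.

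The others of that group held 15 to 20 fragments. CCDC110, a coiled-coil protein gene, had 12.3-fold on 20 fragments, 423 bp downstream of its start. UBA6, a ubiquitin-activating enzyme, had 11.5-fold on 16, and PPAT, which opens purine synthesis, 10.96-fold on 19 with a second peak of 7.67-fold beside it. PPP3CA, a catalytic subunit of calcineurin, had 10.1-fold on 15. SEC31A, a COPII coat protein gene, and THAP9, a transposase-derived gene, shared a peak of 10.02-fold on 19 fragments between their starts.

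Gene pairs that share an end were found on both arms. On each arm 13 gene-end summits lay within 1 kb of the ends of 2 or more genes. Short-arm examples were LIAS, which makes lipoate in mitochondria, with RPL9, a large ribosomal subunit gene (9.40-fold on 19 fragments), and NOP14, of small subunit assembly, with GRK4, a receptor kinase (8.38-fold on 14). GAK, a kinase of clathrin uncoating, and TMEM175, a lysosomal channel, shared 7.90-fold on 16. Long-arm examples were G3BP2, a stress granule protein gene, with USO1, of vesicle tethering (9.24-fold on 13), and ANKRD37 with LRP2BP (9.21-fold on 14). ENOPH1 and HNRNPDL shared 3 summits within 1 kb, of 7.53-, 5.72- and 5.17-fold. The median fold of shared summits was 7.09 against 6.001 at single ends on the short arm, and 5.42 against 6.55 on the long arm, so the order differed between the arms.

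Some strong peaks lay at starts inside a gene record. Over 1 kb from every protein-coding record end but within 1 kb of a listed start lay 27 summits. Of these, 12 were on the short arm and 15 on the long arm, and none was counted as a gene-end summit. The strongest was UVSSA, a factor of transcription-coupled repair, with 18.5-fold on 48 fragments (35.4 to 63.6) at chr4:1346896-1347235. SEC31A had such a peak of 12.8-fold on 22 fragments, and GRSF1, which binds mitochondrial RNA, one of 9.996-fold on 14. FAM193A followed with 8.12-fold and RGS12, a regulator of G protein signalling, with 7.49-fold. RBPJ, the DNA-binding factor of the Notch pathway, had 7.20-fold on 12 fragments (6.20 to 21.0), 386 bp upstream of a listed start and 116 kb from the nearest end of a protein-coding record.

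A few long genes of the short arm held several summits each. RGS12 held 8 summits within its 154 kb record, from 3.66- to 7.49-fold, and 4 of them lay within 3.13 kb of each other. Of those 4, the summits at −159 and 314 bp were within 1 kb of a listed start, and the others lay further downstream. TBC1D1, a GTPase activator of glucose transport, held 5. APBB2, FAM53A, LIMCH1, NWD2, RBM47 and SORCS2 held 4 each, all on the short arm. RBM47, an RNA-binding protein of epithelial cells, had the highest fold among them, 11.4 on 24 fragments, far inside the gene. On the long arm UBE2D3, a ubiquitin-conjugating enzyme, held 4 within 1.58 kb, from 3.61- to 6.80-fold. DUX4 held 3 in repeats of near-identical sequence, where the place of a read is uncertain.

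The highest peaks away from gene ends lay beside the centromere on the short arm and at the end of the long arm. The 44 summits of the 1 Mb bin from 49 Mb all lay between genes. Their median fold was 8.24, from 2.92 to 31.6, on a median of 29.5 fragments, and 37 of 44 reached a −log10 q of 5. The highest short-arm peak was chr4:49149332-49149844, 31.6-fold on 424 fragments (385 to 466), and chr4:49139639-49139814 followed with 25.7-fold on 138. Next came chr4:49709300-49709560 with 25.5-fold on 68, chr4:49092746-49092900 with 24.0-fold on 113 and chr4:49118874-49119076 with 23.2-fold on 111. These are the 5 highest short-arm peaks away from gene ends.

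The local background of that bin was also high, with a median of 2.79 fragments and a highest value of 12.7, against a median of 0.716 on the rest of the short arm. Its part in these peaks was not tested, and neither was how surely reads can be placed in this bin beside the centromere. Among the 2522 bins of 1 Mb with a summit on any chromosome, the bin ranked 64 by summits, and the fullest bin held 150.

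At the end of the long arm, 15 summits had a median of 13.6-fold, and 14 reached a −log10 q of 5. The peak at chr4:189233844-189234061, 31.8-fold on 125 fragments (104 to 149), was the highest of the chromosome by fold. A neighbour at chr4:189235024-189235240 had 22.2-fold on 87. Further out, chr4:190022660-190022776 had 29.7-fold on 61 fragments, 76 bp from the DUX4L9 pseudogene, and chr4:190081972-190082179 had 23.05-fold on 33, 322 bp from DUX4L4. The fifth, chr4:190179469-190179661, lay inside DUX4 with 20.6-fold on 45. DUX4 copies are near identical, so the assignment of fragments at DUX4L9, DUX4L4 and DUX4 to a copy is uncertain. The peaks at chr4:189233844-189234061 and chr4:189235024-189235240 lay 29083 and 30271 bp from the nearest record, a long noncoding RNA gene. Placement of their reads was not tested.

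Outside those bins, 2 strong peaks of the short arm lay beside copies of the FAM86 pseudogene family, and they are named here because of their values. FAM86EP had 18.9-fold on 35 fragments and FAM86KP 15.6-fold on 22, with summits 127 and 146 bp from the records. These copies too are similar to each other.

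Clusters of 3 or more summits, each within 10 kb of the next, numbered 11 on the short arm and 4 on the long arm. Of the short-arm clusters 7 lay in the 49 Mb bin, where the placement of reads was not tested. The fullest of these held 11 summits over 26.9 kb, 10 over 24.4 kb and 6 over 24.9 kb. The other short-arm clusters were at SLBP, TACC3 and TMEM129 with 4 summits, at RGS12 with 4, at SORCS2 with 3 and at PGM2 with 3. Long-arm clusters were at UBE2D3 with 4 summits, and at HNRNPD, at HNRNPDL with ENOPH1 and at DUX4 with 3 each.

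Long stretches without a summit were found on both arms. On the long arm the longest was 10.6 Mb, from a summit at NOA1 to one at CENPC, with 6 protein-coding genes, among them EPHA5 and ADGRL3, receptors of neural wiring, and POLR2B, a subunit of RNA polymerase II. A stretch of 9.15 Mb from TIGD2 to RAP1GDS1 spanned 14 genes, including BMPR1B. A stretch of 7.23 Mb beyond HMGB2 spanned 16, including HAND2 and VEGFC. The longest on the short arm was 6.72 Mb from LAP3 to PPARGC1A, with 9 genes including SLIT2 and NCAPG. Shorter ones were 3.55 Mb beyond STIM2 and 2.56 Mb up to CNGA1, the last over 10 genes with the GABA receptor genes GABRG1, GABRA2, GABRA4 and GABRB1.

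The outermost peaks and those on either side of the arm boundary rested on 10 fragments or fewer. The first, chr4:10043-10148, and the last, chr4:190203636-190203909, each had 6.10-fold on 8 fragments. The last short-arm peak, chr4:50676936-50677122, lay 34.7 kb from the boundary with 7.46-fold on 10. The first long-arm peak, chr4:51107257-51107440, lay 396 kb beyond it with 4.75-fold on 6.

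Chromosome 4 genes were grouped into 19 lists of 183 genes in all, of which 45 had a summit at an end. Each list is given as a count beside the 19.2% of chromosome 4 genes and the 41.5% of all genes. No list was tested. In lists this small each gene moves the share by several percent.

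A few chemokine and EGF family ligand genes had a summit at an end, none of them at a −log10 q of at least 10. The chemokine share, 23.1%, compares with 14.6% of genes on the long arm, where all 13 lie, and 19.2% on chromosome 4. In so few genes this gives no result about the cluster. The 5 EGF family ligands lie on that arm too. Of 13 genes of the CXC chemokine cluster, neutrophil and lymphocyte attractants of the long arm, 3 had a summit. CXCL2 had 6.55-fold on 19 fragments and a second peak of 6.17-fold at its finish, CXCL1 had 5.90-fold on 10, and CXCL8, the interleukin that recruits neutrophils, 4.69-fold on 8. CXCL10 and CXCL11, which answer to interferon, had none. Of 5 EGF family ligands, EREG had 7.49-fold on 12 fragments (6.20 to 21.0) and AREG 7.08-fold on 10 (4.795 to 18.4), both within 53 bp of their starts. BTC, EGF and EPGN had none, so the marked ligands of the cluster were epiregulin and amphiregulin. A further peak of 6.66-fold lay past the finish of EREG.

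Among 5 receptor tyrosine kinases, KDR, a VEGF receptor, had a peak of 4.75-fold on 6 fragments at its finish, 47.8 kb from its start. EPHA5, FGFR3, KIT and PDGFRA had none, and the nearest summit to KIT lay 337 kb away. The 6 FGF, VEGF and PDGF ligands and FGF-binding protein genes, FGF2, FGF5, FGFBP1, FGFBP2, VEGFC and PDGFC, had no summit at an end.

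The Wnt list had 0 of 5 genes with a summit at an end. Of them 4 lie on the long arm, where 14.6% of all genes had one, so a list this small gives no result about the pathway. CTBP1, a corepressor, held a peak of 3.95-fold on 7 fragments inside the gene, and CXXC4, DKK2, LEF1 and SFRP2, the others of the 5, held none. LEF1 spans chr4:108047548-108168932 on the minus strand, 121 kb, and held 0 summits inside and 0 at its ends. The nearest summit lay 57.7 kb away at HADH, a mitochondrial fatty acid enzyme, with 6.10-fold on 8 fragments. The lowest summit count called on the long arm is 5 fragments, so weaker enrichment at LEF1 was not detectable in this list. For DKK2 the nearest summit lay 684 kb away and for SFRP2 651 kb.

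The Notch, Hedgehog and BMP list gave 0 of 9 at an end. RBPJ held the inner peak given above, and EVC, of Hedgehog signalling in cilia, a peak of 6.78-fold on 9 fragments inside the gene. BMP2K, BMP3, BMPR1B, EVC2, HHIP, MAML3 and SMAD1 had no summit. Stem cell genes gave 0 of 6. PROM1, which encodes the CD133 antigen, had its nearest summit 62.1 kb away, ABCG2, the side-population transporter, 53.2 kb, and REST, a repressor of neuronal genes, 41.8 kb. KIT, LEF1 and ZFP42 completed that list.

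Of 9 drivers and tumour suppressors of squamous carcinoma, 2 had a summit at an end, among them NSD2, a histone methyltransferase, with 5.15-fold on 9 fragments. FAT1, FAT4, FBXW7, FGFR3, INPP4B, NFKB1 and TET2 had none. The nearest summit lay 193 kb from FAT1 and 2277 kb from TET2. The cell death and NF-kB list had 3 of 12, led by TNIP2, which restrains NF-kB, with 7.68-fold on 17. TLR6, a receptor of bacterial lipopeptides, had 5.12-fold on 9 at the end of its record, but the summit lay at −11465 bp relative to its listed start and 476 bp downstream of the start of FAM114A1, which shares the peak. CASP6 and IRF2 were without.

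Mitochondrial genes had 7 of 11, with LIAS (9.40-fold), GRPEL1, of protein import (7.77-fold), COX18, of cytochrome oxidase assembly (7.46-fold), and LETM1, a cation exchanger (7.26-fold), in the lead. MRPS18C and NDUFC1 were among those without. Ubiquitin, protein turnover and trafficking had 8 of 13, with COPS4, UBA6 and SEC31A given above and UBE2K, a ubiquitin-conjugating enzyme, at 8.70-fold. OTUD4 and SEC24B had none. Replication, mitosis and chromatin had 10 of 18. ANAPC4, of the anaphase-promoting complex, had 8.13-fold on 11 fragments, SLBP, which binds histone messenger RNA, 7.34-fold on 16, TACC3, of the spindle, 7.09-fold on 20, and PDS5A, of cohesin, 6.78-fold on 16. ANAPC10 and CENPE had none.

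Ribosome, translation and RNA processing had 6 of 20, with a median fold of 9.32 over those 6. HNRNPD, RPS3A, RPL9 and G3BP2 led it, and ABCE1 and AIMP1 were without a summit. Of 7 DNA repair genes, POLN had 11.5-fold and PRIMPOL, a repriming polymerase, 5.42-fold. UVSSA held 3 summits inside, and HELQ, HPF1, MND1 and NEIL3 held none.

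The squamous epithelium and airway protease list had 3 of 10, KLF3, a zinc finger factor of epidermis (6.77-fold on 19), LIMCH1, of actin bundling (5.24-fold on 10), and RBM47 (3.52-fold on 5), all on the short arm. Of these only KLF3 reached a −log10 q of 5. The airway protease genes TMPRSS11A, TMPRSS11B, TMPRSS11D, TMPRSS11E and TMPRSS11F had no summit inside or at an end. ANXA3 and FRAS1 had none either. Hepatocyte genes had 0 of 12, with ADH1A and ADH4 named first, genes of saliva, milk and tooth proteins 0 of 15, with AMBN and AMTN, and neuron genes 0 of 9, among them GABRA2, GABRA4, GABRB1, GABRG1, GLRB and GRIA2. The hepatocyte list and the saliva, milk and tooth list lie wholly on the long arm. There 14.6% of all genes had a summit at an end. The 6 endothelial and stromal genes gave KDR alone, with CORIN, EMCN, IGFBP7, PDGFRA and SPARCL1 at none.

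The E-box and TCF/LEF letters were not more frequent in marked promoters of chromosome 4, while the E-box form CACGTG had a higher share with overlapping intervals. Of 93 chromosome 4 promoters with a summit inside the 250 upstream bases, 49 held an E-box CANNTG, 52.7% (Wilson interval 42.6 to 62.5%), against 514 of 872 without a summit, 58.9% (55.6 to 62.2%). Over all chromosomes 58.1% of 22078 promoters held it. The share there was lower with a summit, 49.2% (47.7 to 50.6%), than without, 60.4% (59.7 to 61.2%). The letters CTTTGA or CTTTGT were in 7 of the 93, 7.53% (3.69 to 14.7%), against 224 of 872, 25.7% (22.9 to 28.7%), and 19.7% of promoters on all chromosomes. Marked promoters had a median GC of 70.8% against 58.4% for the others, and the part of GC in these shares was not tested. On the short arm 20 of 43 marked promoters held an E-box, 46.5%, and on the long arm 29 of 50, 58.0%. The palindrome CACGTG was in 13 of the 93, 13.98% (8.35 to 22.5%), against 70 of 872, 8.03% (6.40 to 10.02%), intervals that overlap. Over all chromosomes CACGTG was in 9.99% (9.15 to 10.9%) of the 4554 promoters with a summit and 6.67% (6.31 to 7.04%) of the 17524 without, intervals that do not overlap. These letters are one form of CANNTG, so the counts overlap with those of the E-box. The 965 promoters of chromosome 4 came from 657 genes. Stretches of nearby starts can overlap and share a summit and letters, while the intervals take promoters as independent.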

How the data were processed

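Per the submitters' processing notes, Bowtie2 2.3.5.1, SAMtools, MACS2 2.2.7.1 and the build hg38 were used, while settings and the caller's control are not given in the sources used here. The assay is not named in the labels. The peak list of the TCF4 library gives a fold enrichment, which is the authors' ratio of summit pileup to local background, taken here with 1 added to each. It also holds the −log10 p and −log10 q deposited by the authors, which are p-value and q-value of each summit, down to a −log10 q of 1.302. The deposited score equals 10 times the −log10 q with decimals dropped in all 26642 peaks. Starts are printed 1-based.

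Fold and −log10 p were solved for the whole fragments at the summit and the background, taking the fold as (fragments + 1) over (background + 1) and the p as a Poisson tail. The deposited −log10 p was met within 0.0001 for all 26642 peaks, and 500 of 500 simulated peaks gave back their fragments. The library's total number of fragments is unknown. Genes are the 58961 RefSeq records of GRCh38.p14 on main chromosomes, 19866 of them protein-coding and 764 of those on chromosome 4. Strand and starts came from the RefSeq promoter table, which listed 657 of the 764. No genome was used, so the planned motif search in 100 bp round each summit, and exon and intron classes, were not run. A gene end is a window of 1 kb round either end of a record.

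Shares carry Wilson, densities exact Poisson and ratios exact conditional binomial 95% intervals. The IgG library was not analysed here. No test compares groups, and 1 library per group allows none. Named genes followed a rule for each arm. It took the 10 genes with the highest fold at an end, the 5 highest other peaks, the 5 genes holding most summits (ties kept), the fullest clusters and the 3 longest empty stretches. From lists of up to 9 genes it took all members, and from longer lists up to 4 of highest fold and at most 2 that had no summit, and it took LEF1. The TMPRSS11 genes were named beyond this rule. Some members of these lists and stretches are not reported here. The members, the lists and this rule were chosen with earlier results of these data known. Alternatives were stricter q thresholds, other windows, other stitching distances, every gene record, and zones left out. Computation used pandas 2.3.3 and NumPy 2.4.6 under Python 3.11.15, with intervals from SciPy 1.17.1 and plots from Matplotlib 3.10.9.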

Additional observations from a re-analysis of the deposited data

How the results depend on the processing

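Of 73 alternatives over 13 results, 47 left the value inside its interval, or a count within 1.5 times, and 26 moved it. With a −log10 q of at least 5 and of at least 10, respectively, the short arm's share of summits went from 70.2% to 64.3% and 65.6%, and its density over that of the long arm from 6.48 to 4.95 and 5.24. Under the same thresholds the gene-end share of short-arm summits rose from 22.3% to 30.3% and 32.2%, while that of long-arm summits went from 53.1% to 57.0% and 48.4%. The share of genes with a summit at an end fell to 18.5% and 9.88% on the short arm and to 8.45% and 3.45% on the long arm. Median folds became 7.27 and 10.7 on the short arm and 7.53 and 12.8 on the long arm. At a −log10 q of 5 the median backgrounds were 1.05 and 0.559 fragments, and 6 clusters remained on the short arm and 0 on the long arm. At 10, 13 of the 45 list genes still had a summit at an end. Without peaks at the lowest background, the median background was 0.834 on the short arm and 0.682 on the long arm, and the median folds were 5.25 and 7.08. Counting ends of every gene record put 63.3% of long-arm summits at an end. With 25 kb between summits the short arm had 25 clusters.

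Leaving out zones was chosen after seeing the data. Without the bins from 30 to 50 Mb the density ratio was 4.15, and without the 49 Mb bin it was 5.77 and the short arm had 4 clusters, as many as the long arm. Of 76 list counts 20 moved, mostly at the stricter thresholds. No paired analysis was possible because each antibody has 1 library. Depth limits single peaks, since most rest on 10 fragments or fewer, and a gene without a peak may carry weaker enrichment than the caller reports.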
